A study of Mus musculus with 36 samples.

Results

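Wnt2, Wnt2b, Wnt4, Wnt5a, Wnt5b, Wnt7a, Wnt7b, Wnt8b, Wnt11 and Wnt16 are the Wnt ligand genes examined here, and each stands alone in the genome, without another Wnt gene beside it. The rule that defines them uses this position and no measured value, and they are 10 of the 21938 protein-coding genes of the annotation. For each gene the promoter, taken as the 2 kb on either side of the annotated transcription start site (TSS), and the gene body were compared with the islands of 3 histone marks.

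The islands come from chromatin immunoprecipitation sequencing (ChIP-seq) of hippocampus from mice at postnatal day 0 (P0) and of neurospheres, floating cultures of neural progenitors grown from P0 hippocampi with FGF2 and EGF. Mice of the Ctrl group carried floxed Kdm2b alleles (Kdm2bfl/+ or Kdm2bfl/fl in the labels, with no note of which library had which). Mice of the cKO group were Kdm2bEmx1-delta-CxxC, in which Emx1-Cre removes the exon that encodes the CxxC zinc finger of KDM2B. Each mark had 2 libraries per source and genotype, 24 in all, and 12 further samples were inputs without an island file. Emx1-Cre acts in progenitors of the dorsal telencephalon and in the cells they give rise to, so cells of other origin in the hippocampus keep the floxed allele. Islands of histone marks do not show whether the exon was deleted. No source says whether libraries of a group came from separate mice. Every p-value below therefore comes from comparing libraries and does not speak for separate mice.

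Wnt proteins are secreted lipid-modified ligands that bind Frizzled receptors and either stabilise beta-catenin or act through planar polarity and calcium branches. In the forebrain, Wnt ligands from the cortical hem, a signalling centre at the medial edge of the cortex, induce the hippocampus and keep its progenitors dividing. Polycomb complexes hold many developmental genes silent: PRC1 ubiquitylates histone H2A (H2AK119ub1) and PRC2 trimethylates histone H3 (H3K27me3), mostly at CpG-rich promoters. KDM2B brings a PRC1 complex to unmethylated CpG-rich DNA through its CxxC zinc finger, and its long isoform can demethylate H3K36me2, a mark that is usually found outside Polycomb domains. In whole tissue or culture, a mark in fewer cells and less of a mark per cell cannot be told apart.

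The genes lie far from each other. Wnt2 and Wnt16 are the closest pair, 4.26 Mb apart on chromosome 6, which also holds Wnt5b and Wnt7a at a distance of 28.0 Mb from each other. Wnt7b on chromosome 15 is 13.2 Mb from Wnt10b, and Wnt2b, Wnt4, Wnt5a, Wnt8b and Wnt11 have no other Wnt gene listed on their chromosome. Other genes are nearer. The Wnt5b gene, 112 kb long in the annotation, overlaps Fbxl14, and Sec31b lies 2.68 kb from Wnt8b, while Wnt7a has no protein-coding gene within 50 kb.

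The promoters differ in the feature that the removed zinc finger reads. Of the 10 promoters, 7 were CpG-rich, a rule that asks for more than 50% GC and a CpG content above 0.6 of that expected from base composition within a 1-kb window at the start, against 44.3% of all promoters. Wnt7b, Wnt8b and Wnt16 did not meet this rule. Over the full 4-kb promoter the Wnt7b sequence held the most CpGs of the 10, at 62.25 per kb, and Wnt8b the fewest, at 15.75 per kb, while the median was 42.5 for the 10 genes and 21.5 for all genes. Sequences of 300 bases around the RefSeq TSS (250 before it and 50 after it, build GRCm38.p6) were found for 8 of the 10 genes, without Wnt5a and Wnt7b. The 7 shown here are the promoters of Wnt2 and Wnt5b, whose neurosphere H3K27me3 coverage was lower in both cKO libraries, those of Wnt2b, Wnt4 and Wnt11, whose region counts were lower, and those of Wnt8b and Wnt16, which lie outside the CpG-rich rule. They are printed 5′ to 3′ on the gene's strand with every CG in capitals. CG was counted on the printed strand, which reads the same on the other, and 94.6% of the 32851 RefSeq promoters of this length hold at least 1, with a median of 7.

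The first 5 meet the CpG-rich rule. Wnt2 (chr6:18030396-18030695, minus strand) holds 27 CGs, a number that 15.5% of RefSeq promoters reach. Wnt2b (chr3:104961660-104961959, minus strand) holds 43, which 2.61% reach. Wnt4 (chr4:137277385-137277684, plus strand) holds 51, which 0.715% reach. Wnt5b (chr6:119544298-119544597, minus strand) holds 47, which 1.44% reach, and RefSeq lists further Wnt5b starts 77136 and 94961 bases downstream with 4 and 7 CGs. Wnt11 (chr7:98834862-98835161, plus strand) holds 45, which 1.93% reach. The last pair does not meet it. Wnt8b (chr19:44493222-44493521, plus strand) holds 6 CGs, just under the median, a number that 56.4% of promoters reach, and Wnt16 (chr6:22287977-22288276, plus strand) holds 10, which 43.5% reach.
Wnt2: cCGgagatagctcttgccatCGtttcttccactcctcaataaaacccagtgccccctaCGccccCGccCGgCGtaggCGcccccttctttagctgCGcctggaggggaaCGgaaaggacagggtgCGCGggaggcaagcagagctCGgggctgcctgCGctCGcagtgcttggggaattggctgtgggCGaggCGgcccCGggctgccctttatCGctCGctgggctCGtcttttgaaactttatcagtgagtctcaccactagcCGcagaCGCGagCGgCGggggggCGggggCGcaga
Wnt2b: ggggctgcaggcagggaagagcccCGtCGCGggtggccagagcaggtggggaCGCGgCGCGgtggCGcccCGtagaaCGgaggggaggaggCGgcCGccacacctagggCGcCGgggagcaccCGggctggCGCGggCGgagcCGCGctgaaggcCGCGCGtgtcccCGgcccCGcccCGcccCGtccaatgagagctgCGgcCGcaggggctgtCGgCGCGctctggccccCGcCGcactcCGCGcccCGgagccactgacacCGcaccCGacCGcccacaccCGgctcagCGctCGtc
Wnt4: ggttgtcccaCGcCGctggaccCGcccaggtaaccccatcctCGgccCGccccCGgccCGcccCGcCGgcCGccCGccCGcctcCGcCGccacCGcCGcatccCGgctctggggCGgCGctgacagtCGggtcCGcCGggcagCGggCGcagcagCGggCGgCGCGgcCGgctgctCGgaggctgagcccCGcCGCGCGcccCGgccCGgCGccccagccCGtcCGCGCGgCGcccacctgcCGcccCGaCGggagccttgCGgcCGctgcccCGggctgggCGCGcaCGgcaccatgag
Wnt5b: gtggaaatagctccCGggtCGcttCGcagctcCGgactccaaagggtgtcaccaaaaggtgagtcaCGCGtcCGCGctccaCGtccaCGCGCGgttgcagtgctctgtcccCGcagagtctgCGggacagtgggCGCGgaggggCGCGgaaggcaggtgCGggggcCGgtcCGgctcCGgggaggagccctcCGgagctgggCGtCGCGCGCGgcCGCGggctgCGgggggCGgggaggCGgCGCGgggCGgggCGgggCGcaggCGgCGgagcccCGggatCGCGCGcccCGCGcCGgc
Wnt11: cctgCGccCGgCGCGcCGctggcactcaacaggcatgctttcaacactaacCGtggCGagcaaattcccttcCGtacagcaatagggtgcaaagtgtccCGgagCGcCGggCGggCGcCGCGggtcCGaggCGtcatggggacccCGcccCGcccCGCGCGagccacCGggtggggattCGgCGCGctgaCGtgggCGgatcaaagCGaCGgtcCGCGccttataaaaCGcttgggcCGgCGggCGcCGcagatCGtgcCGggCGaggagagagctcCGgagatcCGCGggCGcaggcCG
Wnt8b: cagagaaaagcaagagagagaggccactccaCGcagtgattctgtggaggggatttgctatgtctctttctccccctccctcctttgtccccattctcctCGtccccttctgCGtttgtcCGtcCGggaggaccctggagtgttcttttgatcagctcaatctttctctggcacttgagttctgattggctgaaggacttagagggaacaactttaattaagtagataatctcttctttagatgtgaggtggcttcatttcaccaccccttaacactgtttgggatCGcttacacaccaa
Wnt16: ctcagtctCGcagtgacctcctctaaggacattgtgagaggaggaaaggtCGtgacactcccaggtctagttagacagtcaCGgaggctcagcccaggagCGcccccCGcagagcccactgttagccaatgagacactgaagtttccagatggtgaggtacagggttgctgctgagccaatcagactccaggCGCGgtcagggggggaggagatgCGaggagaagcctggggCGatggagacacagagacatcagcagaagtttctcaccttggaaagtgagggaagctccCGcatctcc

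The libraries differed in how much of the genome was called. Counts inside islands ran from 987329 to 6799122 in hippocampus H2AK119ub1, from 1681001 to 5525016 in hippocampus H3K27me3 and from 3109819 to 4504325 in hippocampus H3K36me2, and from 5025115 to 22021439 over the 12 neurosphere libraries. These are not total depths, which the files do not give, and a value of 0% means that no island was called, not that no read was present. The hippocampus H2AK119ub1 libraries numbered 1 covered only 45.7 Mb (Ctrl) and 37.3 Mb (cKO), against 157 and 247 Mb in those numbered 2. As a check of the labels, H3K27me3 islands covered at least 50% of the promoter of 10 of 10 genes of other lineages, such as Gata4 and Myod1, in all 8 libraries. Of 10 forebrain and progenitor genes, such as Sox2 and Nes, 1 in hippocampus (Pax6) and 0 in neurospheres were covered to that extent in all 4 libraries. Even so, neurosphere Emx1 had 100% in both Ctrl libraries and 100% and 39.1% in cKO. Neurosphere Pax6 had 100% in both Ctrl libraries and 100% and 0% in cKO. Lhx2 had 80.0% in neurosphere Ctrl replicate 1 only, and 5 of the 10 genes were at 0% in all 4 neurosphere libraries. Hippocampus cKO replicate 2 stood apart, with H3K27me3 over 89.1% of the Emx1, 55.0% of the Emx2 and 100% of the Lhx2 promoter, where the other 3 hippocampus libraries had none.

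**Figure D1:**
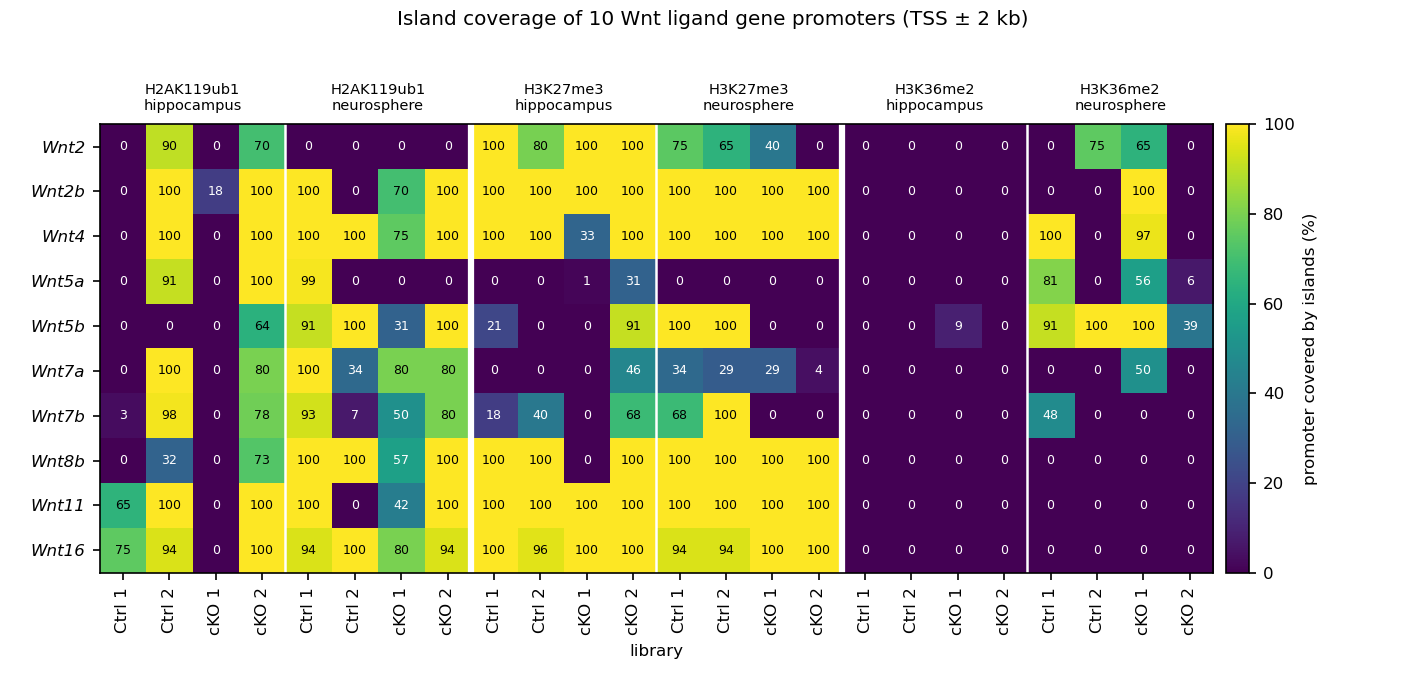
Island coverage of each promoter (TSS ± 2 kb, percent of bases) for the 10 genes (vertical axis) in each of the 24 libraries (horizontal axis), grouped by mark and source. H3K27me3 covered Wnt2b and Wnt11 over 100% in all 8 libraries, H3K36me2 reached 1 promoter in hippocampus, and the hippocampus H2AK119ub1 libraries numbered 1 are nearly empty.

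The comparison of cKO with Ctrl asks whether losing the CxxC zinc finger changed the marks at these genes. In neurospheres, H3K27me3 islands covered less of the Wnt2, Wnt5b and Wnt7b promoters in both cKO libraries than in both Ctrl libraries, and more of the Wnt16 promoter. Wnt2b, Wnt4, Wnt8b and Wnt11 were covered over 100% in all 4 libraries, so that coverage could show no difference there. Wnt5a had no island in any of them.

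Among the genes best known outside the forebrain, Wnt2, a ligand of lung and heart development, had 74.6% and 64.6% of its promoter covered in Ctrl, but 39.6% and 0% in cKO. Wnt5b, a ligand that acts mostly without beta-catenin and is known from cartilage, had its whole promoter covered in both Ctrl libraries, with no island in either cKO library. Wnt16, a ligand known from bone, had 94.35% of its promoter covered in each Ctrl library, and 100% in each cKO library. The groups did not overlap for these 3 genes, though for Wnt16 the difference was only 5.65 percentage points at the edge of the window.

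Wnt7a and Wnt7b are ligands of cortical progenitors and neurons that also guide the growth of brain vessels. Wnt7b had 68.2% and 100% of its promoter covered in Ctrl and 0% in both cKO libraries. Wnt7a had 34.1% and 29.1% in Ctrl and 29.1% and 4.08% in cKO, so its groups touched. Each of these differences has an exact permutation p of 0.333 at best (two-sided, 2 libraries against 2), the smallest value this design allows.

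Of the 9 genes with an island in at least 1 of the 4 libraries, 3 were lower in both cKO libraries, against a background of 13.3% of all promoters with an island, and 1 was higher, against 8.54%. Among CpG-rich promoters alone the backgrounds were 18.5% and 5.63%. Wnt7b, 1 of the 3 lower genes, and Wnt16, the higher gene, do not meet the CpG-rich rule, so these backgrounds do not cover them. The mean over the 10 promoters was 78.0% ± 1.19 (SD, n = 2) in Ctrl, against 53.6% ± 4.57 (SD, n = 2) in cKO. That is a difference of -24.3 percentage points, and the median difference of the 10 genes was 0 because 5 were equal. The mean over all 21938 promoters differed by -1.29 points, from 19.5% and 19.4% in the Ctrl libraries. Only 8817 of them had an island in at least 1 of the 4 libraries, so this mean had less room to fall and is not a like background. Without 1 library the mean difference of the 10 genes stayed between -27.6 and -21.1 points. Islands covered 283 and 268 Mb in Ctrl and 305 and 321 Mb in cKO, and the difference was also -24.3 points when islands were reduced to an equal covered length. Counts inside islands were lower in cKO, at 13195590 and 13502744 against 17025504 and 14008986 in Ctrl. Total depth is unknown, and its part in the difference was not tested.

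Marker genes of other cell types were looked at in the same libraries. H3K27me3 covered on average 48.1% and 66.8% of the promoters of 4 neuronal genes (Tubb3, Dcx, Map2 and Rbfox3) in Ctrl and 19.9% and 25.0% in cKO. Among them only Rbfox3 was without overlap, at 100% in both Ctrl and 0% in both cKO libraries, while Tubb3 and Dcx overlapped and Map2 was at 0% in all 4. The 10 forebrain and progenitor genes averaged 30.2% and 20.3% in Ctrl and 21.3% and 3.91% in cKO, which overlapped, with 5 of them at 0% throughout. The part of a change in cell types in the Wnt values was not tested.

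**Figure D2:**
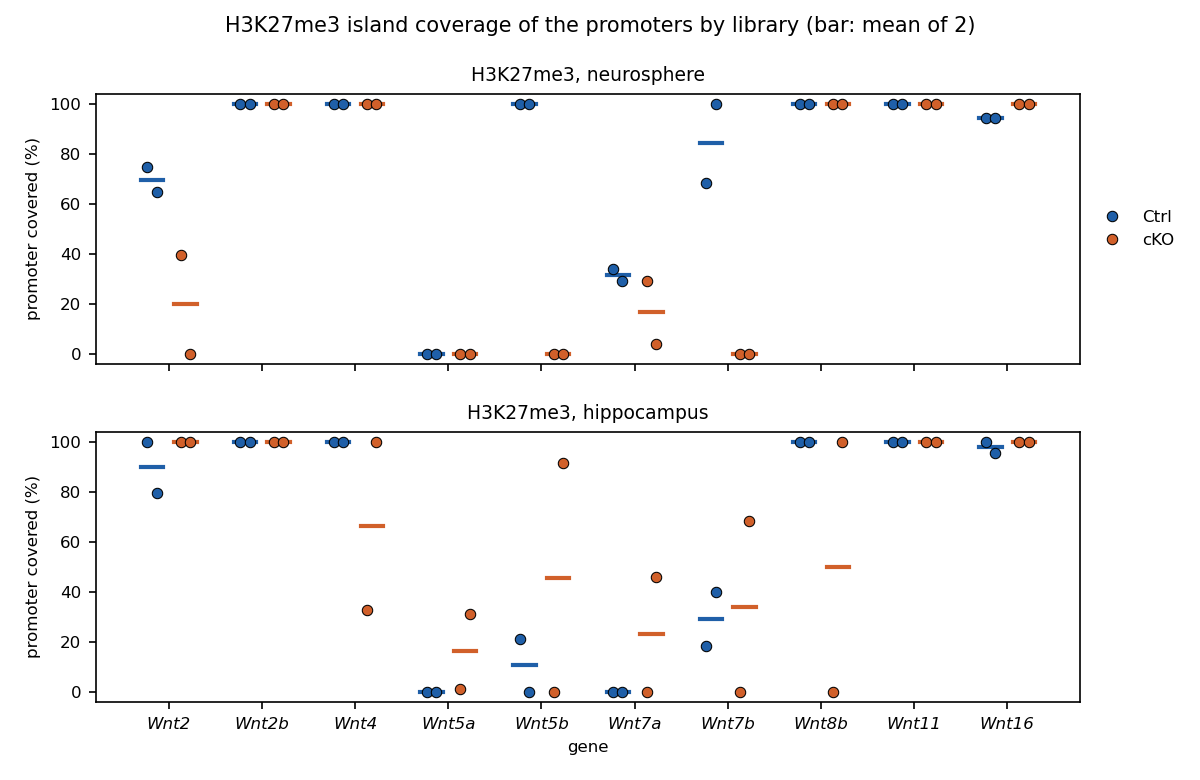
Promoter coverage by H3K27me3 islands (percent of TSS ± 2 kb, vertical axis) of each gene in neurospheres (top) and hippocampus (bottom); points are libraries and bars the mean of 2. In neurospheres Wnt5b and Wnt7b go from at least 68.2% in Ctrl to 0% in both cKO libraries, a separation that hippocampus does not show.

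The gene bodies gave a similar list with smaller shares. A gene body includes the part of the promoter window after the TSS, so both lists draw in part on the same islands. At Wnt2 the covered part of the body in Ctrl was the end of the promoter island, 0.984 and 0.584 kb past the TSS. Of the 8 genes with an island in the gene body, Wnt2, Wnt4, Wnt5b and Wnt7b were lower in both cKO libraries, against a background of 13.4% of genes, and Wnt16 was higher, against 15.1%. Wnt4, a ligand of kidney and female reproductive tract development, had its whole body covered in both Ctrl libraries, against 95.5% and 33.8% in cKO. Wnt7b had 17.6% and 12.1% of its body covered in Ctrl and none in cKO. Wnt16 had 75.5% and 52.2% in Ctrl and 92.2% and 100% in cKO, the reverse of the other 4. Wnt2 had at most 2.37% of its body covered and Wnt5b at most 11.6%, small shares of both genes. In cKO replicate 1 the Wnt5b body was covered over 7.15% with no island at the promoter and only 1.05 kb of H3K27me3 within 20 kb of the TSS, so most of that share lay farther inside the gene. Wnt5a and Wnt7a had no H3K27me3 in the gene body in any neurosphere library.

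The position of the islands separates Wnt7a from the rest. Its neurosphere H3K27me3 island ended before the TSS in all 4 libraries, with its edge at -0.638 and -0.838 kb in Ctrl and at -0.838 and -1.838 kb in cKO, and never reached the gene. The upstream edge lay 20.0 and 8.44 kb from the TSS in Ctrl, against 26.8 and 29.2 kb in cKO, so that the island was wider in cKO without covering more of the promoter. The profile around the TSS shows flat coverage across the start at Wnt4, Wnt8b and Wnt11, and in Ctrl a shorter block around the start at Wnt2, Wnt2b, Wnt5b and Wnt7b.

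**Figure D3:**
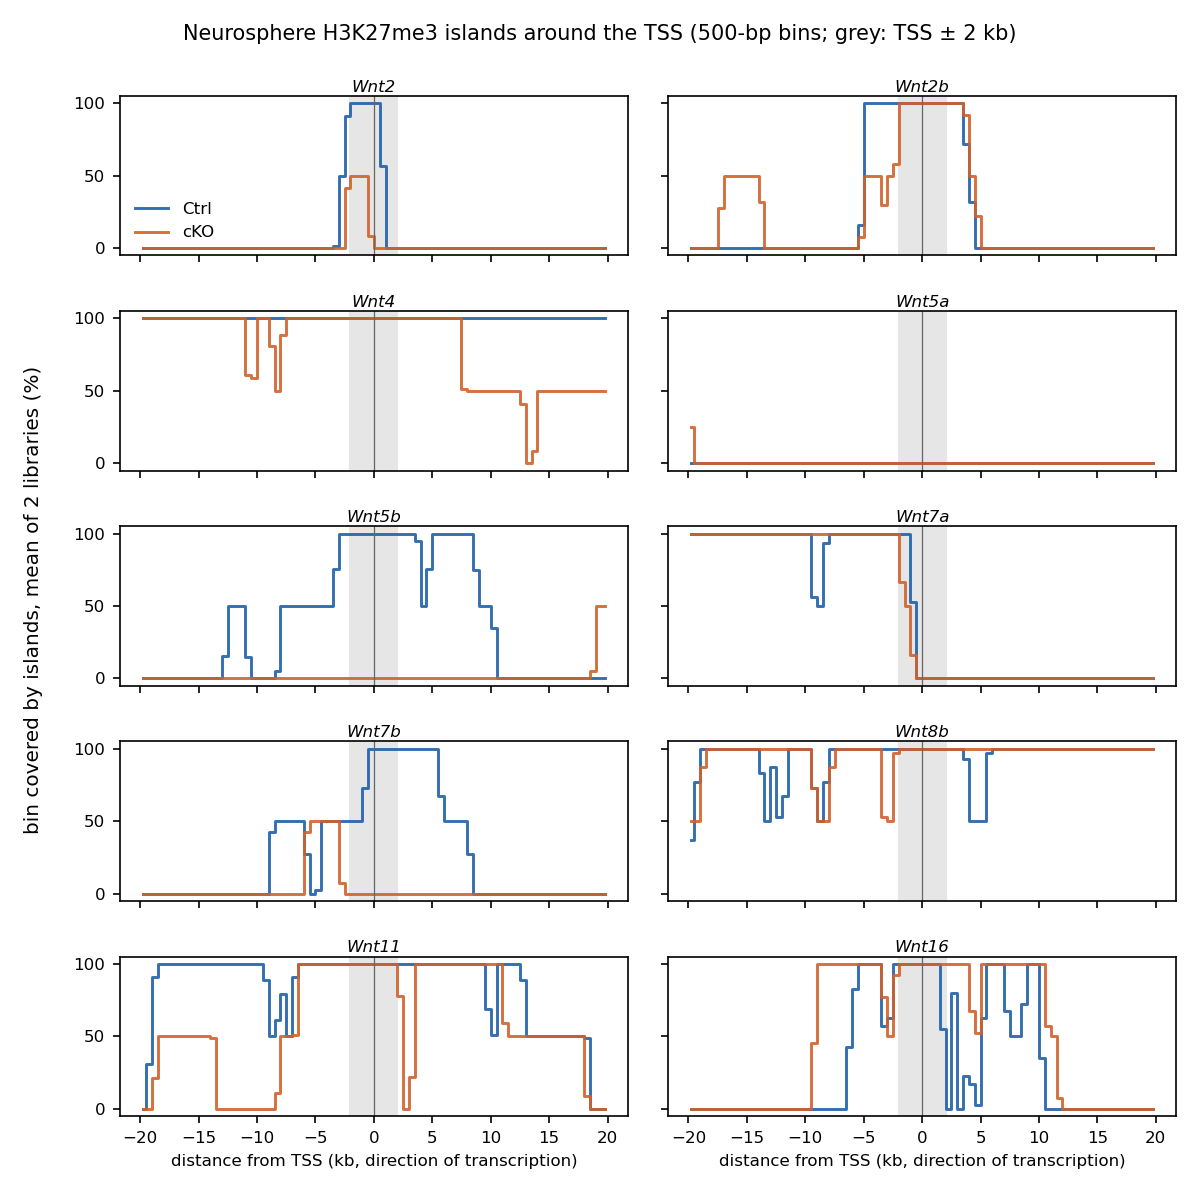
Share of each 500-bp bin covered by neurosphere H3K27me3 islands (percent, mean of 2 libraries per genotype, vertical axis) from 20 kb before to 20 kb after the TSS (horizontal axis, in the direction of transcription) for each gene. At Wnt2, Wnt5b and Wnt7b the cKO line lies at or below the Ctrl line across the grey promoter window, and at Wnt7a both lines end just before the TSS.

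Where a promoter is fully covered, width and density of the island still vary. Of the 6 genes with an island at the promoter in all 4 neurosphere H3K27me3 libraries, Wnt2b, Wnt4 and Wnt11 had narrower islands in both cKO libraries, against 18.1% of all such promoters, and Wnt7a had wider ones, against 28.3%. The Wnt4 island measured 65.0 and 59.2 kb in Ctrl, against 20.8 and 51.0 kb in cKO. The island at Wnt11, a ligand of convergent extension movements and kidney branching, measured 25.4 and 17.8 kb in Ctrl, against 10.4 and 9 kb in cKO. At Wnt2b, a ligand of the cortical hem and the eye, it measured 8.80 and 9.40 kb in Ctrl, against 6 and 7.80 kb in cKO. The Wnt8b island overlapped between the genotypes, at 41.6 and 12.2 kb in Ctrl, against 25.2 and 74.6 kb in cKO, and in 1 Ctrl library it reached Sec31b. Wnt8b is a hem ligand of the hippocampal primordium, and in cKO replicate 2 its island was the widest of the 10 genes.

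Counts per kb of island were divided by the mean over all islands of the same library, since this mean was itself lower in cKO (43.2 and 42.0 counts per kb) than in Ctrl (60.2 and 52.3). Relative density was lower in both cKO libraries at Wnt4 and Wnt11, against a background of 25.3%, and overlapped at the other 4 genes. At Wnt4 the ratio was 1.197 and 1.29 in Ctrl, against 1.13 and 0.951 in cKO. At Wnt11 it was 1.70 and 1.91 in Ctrl, against 1.56 and 1.45 in cKO. Of the 6 genes, Wnt16 had the densest island in 3 of the 4 libraries, with ratios of 1.92 and 2.22 in Ctrl and 2.37 and 1.60 in cKO. Its promoter is among the 3 outside the CpG-rich rule.

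**Figure D4:**
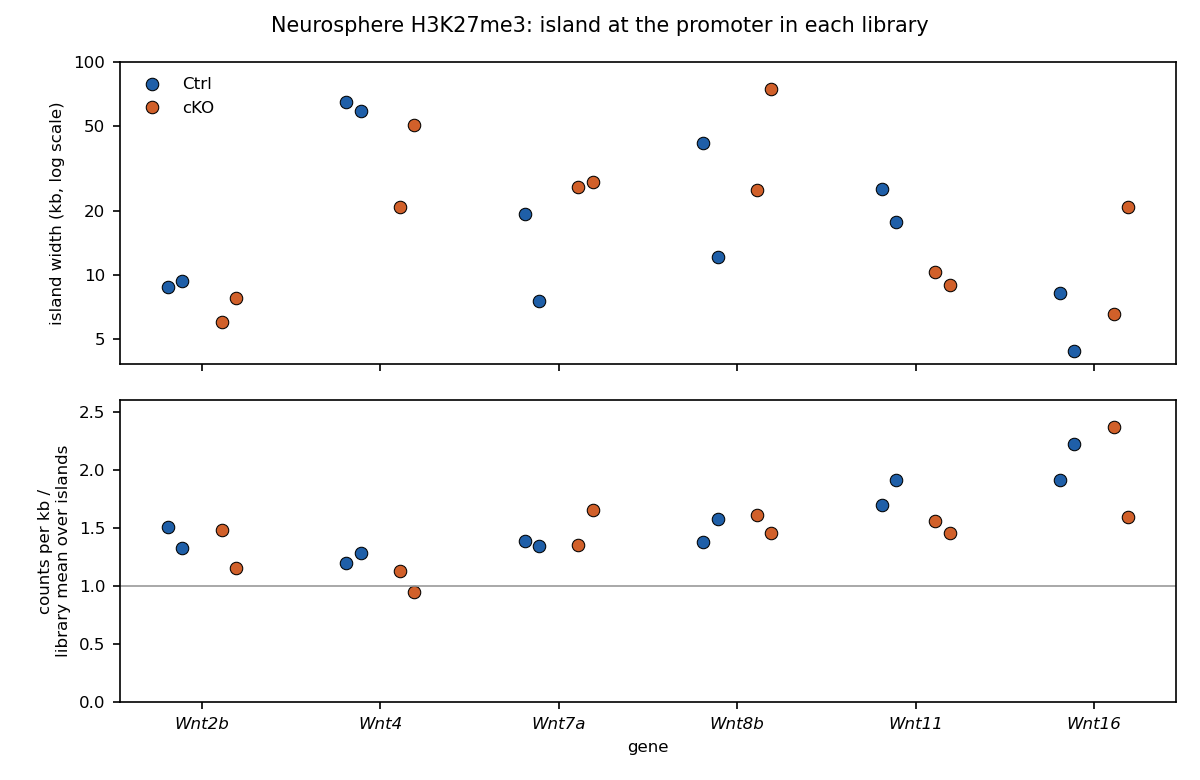
Width of the neurosphere H3K27me3 island at the promoter (kb, log scale, top) and its counts per kb divided by the library's mean over all islands (bottom) for the 6 genes with an island in all 4 libraries; each point is a library. Wnt2b, Wnt4 and Wnt11 are narrower in both cKO libraries and Wnt7a is wider.

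Counts summed over the merged region of each gene combine width and density. In neurosphere H3K27me3, the Wnt4 region (chr4:137049001-137307600) held 18149 and 14891 counts in Ctrl, against 11755 and 8920 in cKO, a log2 fold change of -0.66 ± 0.21 (SE). The Wnt11 region (chr7:98815801-98853600) held 3175 and 2303 counts in Ctrl, against 1718 and 870 in cKO, a log2 fold change of -1.04 ± 0.38 (SE). The Wnt2b region (chr3:104957201-104967000) held 801 and 653 counts in Ctrl, against 460 and 378 in cKO, a log2 fold change of -0.78 ± 0.28 (SE). These raw counts did not overlap between the groups for the 3 genes. They are not normalised, and counts inside islands over the whole library were also lower in both cKO libraries. The share of all regions without overlap in raw counts is not given. The Wnt4 region reaches far upstream of the gene, and the island at the Wnt4 promoter held only 4686 and 3986 of its counts in Ctrl and 1015 and 2039 in cKO.

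The quasi-likelihood test of edgeR gave unadjusted p-values of 0.0255, 0.0402 and 0.0349 for Wnt4, Wnt11 and Wnt2b, and adjusted p-values of 0.231, 0.255 and 0.247 over the 11262 regions tested. No region of any gene passed a false discovery rate (FDR) of 0.05 in this comparison with edgeR, 2077 had an unadjusted p under 0.05, and DESeq2 called 738. Lower counts at an unadjusted p under 0.05 were found for 3 of the 6 member regions, against 8.94% of all regions. Wnt16 at 0.31, Wnt8b at -0.05 and Wnt7a at -0.14 did not reach that level, and the median of the 6 was -0.40 against 0.014 for all regions. Leaving out cKO replicate 1 brought the 3 genes past the FDR, at -0.94 for Wnt4 (edgeR adjusted p 0.0156), -1.69 for Wnt11 (0.00609) and -0.99 for Wnt2b (0.0427), among 2409 regions called. In that fit the single cKO library is assumed to vary as the Ctrl pair does. Leaving out either Ctrl library left 0 of the 6 with an unadjusted p under 0.05.

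In hippocampus, H3K27me3 covered at least 79.6% of the Wnt2, Wnt2b, Wnt4, Wnt8b, Wnt11 and Wnt16 promoters in at least 3 of 4 libraries. Wnt7b also had an island in 3 of 4 libraries, over at most 68.2% of its promoter. In promoter coverage the genotypes overlapped or were tied at 9 of the 10 genes. Wnt2b and Wnt11 were covered over 100% in all 4 libraries and Wnt16 over at least 95.7%. Wnt2 had 100% and 79.6% in Ctrl and 100% in both cKO libraries. Wnt4 had 100% in both Ctrl libraries and 32.8% and 100% in cKO, and Wnt8b had 100% in both Ctrl libraries and 0% and 100% in cKO, the low value being cKO replicate 1 in each case.

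The genes with little hippocampal H3K27me3 were high in cKO replicate 2, the library that also covered Emx1 and Lhx2. Wnt5b had 21.3% and 0% in Ctrl and 0% and 91.3% in cKO. Wnt7a had 0% in both Ctrl libraries and 0% and 45.9% in cKO, and Wnt7b had 18.2% and 40% in Ctrl and 0% and 68.2% in cKO. Wnt5a, a ligand of the polarity branch that is also made in the cortical hem, had 0% in Ctrl and 1.27% and 31.3% in cKO. It was the only 1 of the 10 genes whose groups did not overlap in promoter coverage, against a background of 11.8% of promoters higher in both cKO libraries. Relative density of the hippocampus island was higher in both cKO libraries at Wnt2b, at 1.21 and 1.98 against 1.14 and 1.19 in Ctrl. It overlapped at Wnt2, Wnt4, Wnt11 and Wnt16, and island width overlapped at all 5 genes with an island in every hippocampus library. The share of all promoters with higher relative density is not given for hippocampus, so 1 of 5 genes cannot be set against a background.

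The mean over the 10 genes was 62.7% ± 1.71 (SD, n = 2) in Ctrl, against 63.5% ± 28.5 (SD, n = 2) in cKO, so the cKO libraries spanned both sides of the Ctrl mean. Without cKO replicate 2 the difference of 0.8 points became -19.3, and without cKO replicate 1 it became 20.9. In the gene bodies 0 genes were without overlap in either direction, against 21.6% of genes. The 6 regions tested had log2 fold changes from -0.91 at Wnt8b to -0.13 at Wnt2b. None of the 4387 regions passed the FDR with edgeR, 155 had an unadjusted p under 0.05, and DESeq2 called 3.

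The difference between genotypes was then set side by side in both sources. For Wnt5b the H3K27me3 promoter difference was 35.0 points in hippocampus and -100 in neurospheres, with a stratified exact permutation p of 0.278 for both together (two-sided, 36 arrangements). For Wnt7b it was 5.00 and -84.1 points (exact permutation p = 0.222), and for Wnt2 10.2 and -49.8 points (exact permutation p = 0.333). The signs differed between the sources in these 3 genes, and that difference itself was not tested.

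Promoter coverage by H2AK119ub1, the mark that the KDM2B complex places, did not separate the genotypes at any of the 10 genes. In hippocampus 0 of 10 genes were without overlap in either direction, against 3.73% of promoters with an island, and in neurospheres 0 of 9, against 12.2%. The hippocampus values followed the library number. In the libraries numbered 1, coverage was 0% in Ctrl except for Wnt11 (65.0%), Wnt16 (75.0%) and Wnt7b (3.17%), and 0% in cKO except for Wnt2b (18.025%). In those numbered 2, the Ctrl library had an island at 9 genes and the cKO library at all 10, and Wnt2b, Wnt4 and Wnt11 were covered over 100% in both. The mean over the genes was 14.3% and 80.6% in Ctrl, against 1.80% and 86.5% in cKO, a difference of -3.30 points that ran from -45.7 to 39.1 without 1 library.

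In neurospheres Wnt2 had no H2AK119ub1 island in any library, although H3K27me3 covered it in 3 of 4. Wnt4 had 100% in both Ctrl libraries and 75.0% and 100% in cKO, Wnt8b 100% in both Ctrl libraries and 56.8% and 100% in cKO, and Wnt16 94.35% and 100% in Ctrl and 80.0% and 94.35% in cKO. Wnt5b had 91.3% and 100% in Ctrl and 31.3% and 100% in cKO, and thus had H2AK119ub1 in both cKO libraries of a promoter without H3K27me3 islands there. Wnt7b likewise had 93.2% and 6.83% in Ctrl and 50% and 80.0% in cKO. Wnt11 had 100% and 0% in Ctrl and 42.2% and 100% in cKO, and Wnt2b 100% and 0% in Ctrl and 70.0% and 100% in cKO. Wnt5a had 98.7% in Ctrl replicate 1 and no island in the other 3 libraries. Ctrl replicate 2, the only library without islands at Wnt2b and Wnt11, covered 127 Mb against 174 to 327 Mb in the other 3 libraries.

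Among gene bodies, H2AK119ub1 was without overlap in 2 genes. In neurospheres Wnt8b had 89.4% and 84.6% of its body covered by H2AK119ub1 in Ctrl and 78.8% and 72.1% in cKO, against a background of 7.09% of genes lower in both cKO libraries. Wnt16 had 46.4% and 54.1% in Ctrl and 68.9% and 67.7% in cKO, against a background of 8.07% higher, the same direction as its H3K27me3. In hippocampus 0 gene bodies were without overlap, against 6.21%. Relative density of the neurosphere H2AK119ub1 islands was lower in both cKO libraries at Wnt4, Wnt5b and Wnt7a, against a high background of 30.9%. None of the 6060 neurosphere or 2750 hippocampus regions passed the FDR with edgeR, 101 and 30 had an unadjusted p under 0.05, and DESeq2 called 32 and 0. The 6 neurosphere regions at these genes had log2 fold changes from -0.54 at Wnt7b to 0.17 at Wnt7a, and the single hippocampus region, at Wnt2b, was at -0.02.

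H3K36me2 was nearly absent from these promoters in hippocampus. Its only island there covered 8.68% of the Wnt5b promoter in cKO replicate 1, and 0 of the genes were without overlap, against 11.7% of promoters. In neurospheres Wnt8b, Wnt11 and Wnt16 had none in any library. Wnt5b had 91.3% and 100% in Ctrl and 100% and 38.7% in cKO. The other 6 genes had an island in some libraries and 0% in others, such as Wnt4 with 100% and 0% in Ctrl and 97.2% and 0% in cKO, and 0 genes were without overlap, against 9.84%. No neurosphere region of 34454 passed the FDR with edgeR, 736 had an unadjusted p under 0.05 and DESeq2 called 83, with log2 fold changes of -0.32 at Wnt5b and -0.26 at Wnt5a.

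In the gene bodies H3K36me2 was more frequent. In hippocampus it was higher in both cKO libraries at 2 of 6 genes, against 17.4% of genes: Wnt5b, with 21.5% and 19.9% in Ctrl and 36.7% and 29.2% in cKO, and Wnt7a, with 2.95% and 5.07% in Ctrl and 15.2% and 7.60% in cKO. In neurospheres it was higher at 1 of 10 genes, Wnt2b, with 8.41% and 0% in Ctrl and 80.8% and 16.8% in cKO, against 6.95%. Wnt7b had 98.1% and 85.0% of its body covered in neurosphere Ctrl, against 91.3% and 0% in cKO.

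The marks were compared within the 8 pairs of libraries that share source, genotype and number, because each lysate was divided among the immunoprecipitations according to the methods. H3K27me3 covered more of the Wnt2 promoter than H2AK119ub1 did, at 69.8% against 20.0% on average, higher in 6 of 8 pairs and lower in 1 (sign-flip permutation, exact p = 0.03125, two-sided). Wnt7a went the other way, at 17.8% for H3K27me3 against 59.3% for H2AK119ub1, lower in 6 pairs and higher in none (exact permutation p = 0.03125). At an unadjusted p under 0.05, H3K27me3 was higher at 6.23% and lower at 0.965% of the 14303 promoters tested, and Wnt2 and Wnt7a were the only members in each. No promoter passed after Benjamini-Hochberg adjustment over all of them, the smallest adjusted p being 0.457. In neurospheres alone, away from the sparse hippocampus H2AK119ub1 libraries, the means were 44.7% and 0% for Wnt2 (higher in 3 of 4 pairs) and 24.1% and 73.5% for Wnt7a (lower in 4 of 4).

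For Wnt2b, Wnt4, Wnt8b, Wnt11 and Wnt16 the H3K27me3 mean was higher by 18.3 to 39.0 points, and for Wnt5a, Wnt5b and Wnt7b the difference was -9.21 to -32.2 points, none with an unadjusted p under 0.05. The order depends on the source only for Wnt5b, whose H3K27me3 mean exceeded that of H2AK119ub1 in hippocampus (28.2% against 15.9%) and lay below it in neurospheres (50% against 80.7%). Within 20 kb of the 10 TSSs, 37.7% of the H3K27me3 bases in hippocampus Ctrl and 42.2% in hippocampus cKO lay in an H2AK119ub1 island of the paired library. In neurospheres the shares were 66.4% in Ctrl and 69.8% in cKO, while the H3K27me3 length itself was 363 kb in Ctrl and 290 kb in cKO, summed over genes and both libraries. In neurospheres, H3K36me2 islands of the same-numbered library held 20.9% of the H3K27me3 bases in Ctrl and 25.4% in cKO. In hippocampus, matched by number, the shares were 1.28% in Ctrl and 2.78% in cKO. There the labels give separate inputs for H3K36me2, so same-numbered libraries may not share chromatin.

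**Figure D5:**
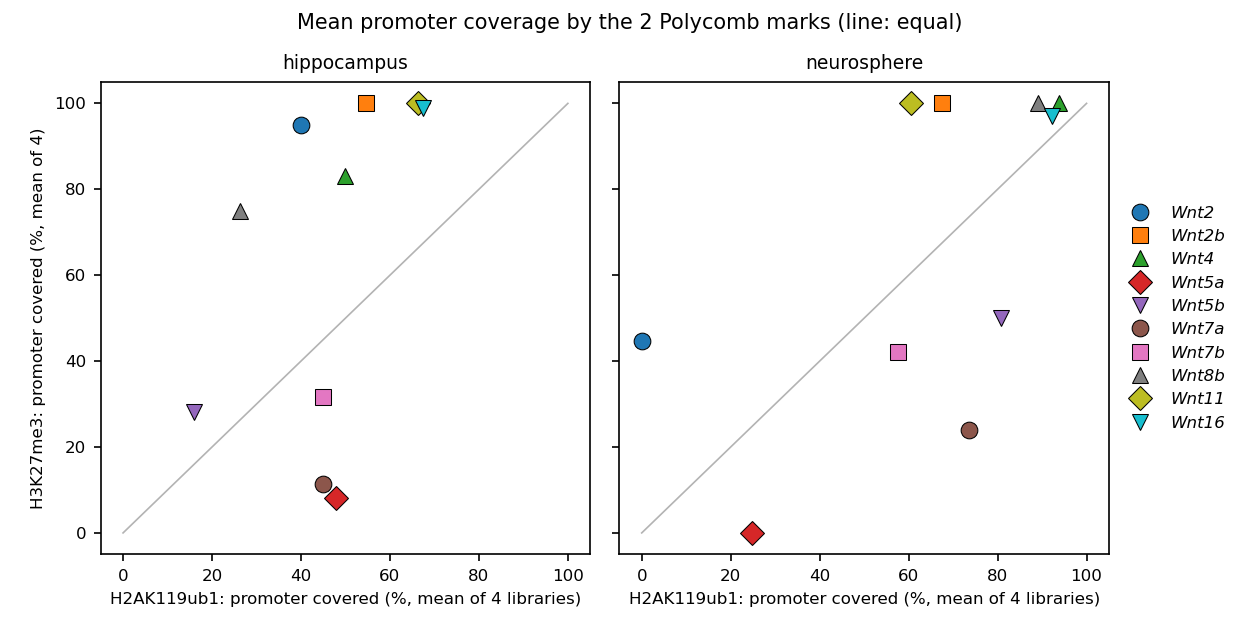
Mean promoter coverage by H2AK119ub1 (horizontal axis, percent) and by H3K27me3 (vertical axis, percent) of each gene over the 4 libraries of hippocampus (left) and of neurospheres (right); the line marks equal coverage. Wnt2 lies far above the line in both sources, and Wnt5a, Wnt7a and Wnt7b lie below it in both.

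Neurospheres were also compared with hippocampus over 4 libraries each. H3K27me3 coverage of Wnt2 was lower in all 4 neurosphere libraries, at 44.7% ± 33.2 (SD, n = 4) against 94.9% ± 10.2 (SD, n = 4) in hippocampus (stratified exact permutation p = 0.0556, two-sided, the smallest possible), while 2.66% of promoters showed this order. H3K36me2 coverage of Wnt5b was higher in all 4 neurosphere libraries, at 82.5% ± 29.5 (SD, n = 4) against 2.17% ± 4.34 (SD, n = 4), again with an exact permutation p of 0.0556 and a background of 6.26%. The sources overlapped for all other genes and marks. These libraries also differ in called length, H3K36me2 islands covering 349 to 497 Mb in neurospheres and 115 to 161 Mb in hippocampus. With islands reduced to equal length, neither gene kept the separation, and Wnt7a was then higher in H3K27me3 in all 4 neurosphere libraries. The share of all promoters that are higher at equal length is not given, so Wnt7a has no background beside it. Cell types differ between tissue and culture, and their part cannot be told apart from that of the culture.

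Across all 8 H3K27me3 libraries the genes could be ordered by mean promoter coverage. Wnt2b and Wnt11 stood at 100%, followed by Wnt16 (98.0%), Wnt4 (91.6%), Wnt8b (87.5%) and Wnt2 (69.8%). Wnt5b (39.1%), Wnt7b (36.8%), Wnt7a (17.8%) and Wnt5a (4.07%) came last. Neighbours in this order overlapped in every case, and Wnt2b and Wnt11 were equal. In the pattern over all 24 libraries, Wnt11 and Wnt16 were the most alike of the members, with a mean absolute difference of 7.52 percentage points, followed by Wnt2b and Wnt11 at 8.78. Wnt2 was the least like any other, its nearest member being Wnt2b at 28.3 points. Outside the list, Irf8 at 10.7, Bahd1 at 11.1 and Edn1 at 11.1 points were the nearest to the mean of the members over the same 24 libraries.

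The other genes of the pathway give the setting. Of 48 other Wnt ligands, secretion factors, receptors, antagonists, effectors and R-spondin branch genes, 35 had neurosphere H3K27me3 at the promoter, of which 4 were lower in both cKO libraries (Wnt9a, Fzd2, Ror2 and Dkk3) and 3 higher (Wls, Frzb and Dkk1), beside the 13.3% and 8.54% of all promoters given above. In neurosphere H2AK119ub1, 6 of 43 were lower, against 7.79% of all promoters, and 0 higher. Among the 24 neurosphere H3K27me3 regions of these genes, 18 had lower counts in cKO with a median log2 fold change of -0.50, and 0 passed the FDR with edgeR. At an unadjusted p under 0.05, 10 were lower, against 8.94% of all regions, and 2 (Dkk1 and Frzb) were higher, against 9.5%. Regions with the other Wnt ligands Wnt1 and Wnt10b, Wnt3, Wnt3a and Wnt9a, and Wnt6 and Wnt10a were 4 of the 10, at promoters where coverage was at or near 100% and could show little.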

How the data were processed

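H2AK119ub1, H3K27me3 and H3K36me2 were profiled in 24 libraries, grouped by mark, source, genotype and replicate number from the sample titles. The authors trimmed reads with cutadapt, aligned them to mm10 with Bowtie2 (2.4.5), removed duplicates with samtools and called islands per library with SICER against input DNA, with 200-bp windows, a gap of 600 bp and an FDR of 0.01. The deposited column 4 holds raw read counts per island, without normalisation. Total reads are not in these files, islands on the mitochondrial chromosome (9) were left out, and counting error alone understates the spread between libraries.

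Genes came from GENCODE mouse release 21 and promoter sequences from RefSeq. Covered shares were computed in Python (3.11.15; numpy 2.4.6, scipy 1.17.1) and tested by two-sided exact permutation (2 against 2, smallest p 0.333; 36 stratified arrangements, smallest p 0.0556) or sign-flip tests over 8 pairs (smallest p 0.0078125). Islands of the 4 libraries of a mark and source were merged into regions, and counts of regions called in all 4 were compared by edgeR 4.0.16 in R 4.3.3 (quasi-likelihood test, TMM, Benjamini-Hochberg over all regions, FDR 0.05). DESeq2 1.42.0 served as an alternative. Interval and count code was tested on simulated data. A region fold change combines called length with density, and positions outside islands have unknown counts.

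The members and gene lists were chosen with earlier results of these data known. All 10 genes were named, with every library value for those without overlap between genotypes, with a region at an unadjusted p under 0.05, or uncovered or fully covered throughout. Alternatives were promoters of 1 kb on each side, all transcript starts, islands of at least 2 kb, equal covered length, DESeq2 size factors, a minimum mean count of 50, a replicate block and leaving out each library. The value of 1 marker gene is not reported here.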

Additional observations from a re-analysis of the deposited data

How the results depend on the processing

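Of the values that answer a comparison, 149 moved by less than the spread between libraries (or, for counts, by no more than 1.5 times) under an alternative and 14 moved by more. That spread was wide in some comparisons, so the 149 does not measure stability. In hippocampus H2AK119ub1 the mean promoter difference of -3.30 points became -45.7 or 39.1 without 1 library and still fell among the 149. No called value changed sign, but mean differences without a call did. Without 1 library the mean promoter difference ran from -25.8 to 17.9 points in neurosphere H2AK119ub1 and from -20.3 to 22.0 in neurosphere H3K36me2, besides the hippocampus ranges of the report. The mean gene body difference ran from -21.8 to 21.0 (hippocampus) and -16.9 to 31.7 (neurospheres) in H2AK119ub1, from -7.31 to 4.95 and -7.40 to 1.51 in H3K27me3 and from 2.18 to 7.70 and -23.6 to 30.5 in H3K36me2. In neurosphere H3K27me3 the mean promoter difference of -24.3 points was -27.7 with promoters of 1 kb on each side and -20.6 over all transcript starts. The count of 1 gene higher in both cKO libraries became 0 with promoters of 1 kb on each side, in neurospheres and in hippocampus, and also 0 in hippocampus at equal covered length. These alternatives for counts were chosen after seeing the data. Wnt2, Wnt5b and Wnt7b were the 3 genes lower in neurospheres under each alternative, and all transcript starts added Wnt11. The hippocampus H3K36me2 difference of 0.434 points was 0 with promoters of 1 kb on each side, -0.421 over all transcript starts and 0 to 0.868 without 1 library. At equal covered length the neurosphere minus hippocampus H3K36me2 mean went from 25.0 to 0.988 points, Wnt5b lost its separation in that mark (0 genes higher), and in H3K27me3 0 genes were lower and 1 was higher. The cause of these changes was not tested, and the shares of all promoters at equal covered length are not given.

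Member regions past the FDR with edgeR numbered 0 to 3 in neurosphere H3K27me3 when 1 library was left out, the 3 appearing without cKO replicate 1. The mean H3K27me3 minus H2AK119ub1 difference of 9.59 points was -2.42 without the hippocampus libraries numbered 1, a choice made after seeing the data.

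Replicate numbers are shared by the groups, but with 2 pairs they do not show a pairing. Deviations of same-numbered libraries correlated at -0.322 (neurosphere H2AK119ub1) to 0.327 (hippocampus H2AK119ub1). With the replicate block 0 member regions passed the FDR in any comparison, and 2 rather than 3 had an unadjusted p under 0.05 in neurosphere H3K27me3. In hippocampus H3K27me3 the block took 1 region below that p, Wnt8b, from 0.189 to 0.00276 with a log2 fold change of -1.32 (edgeR adjusted p 0.1795). Over all regions the block called 9 in hippocampus H3K27me3 and 0 elsewhere. The crossed block called 0 regions for neurosphere H2AK119ub1 (correlation -0.322) and 0 for neurosphere H3K27me3 (-0.121).

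Total depth is unknown here, a missing island is not a count of 0, and 2 libraries per group set the smallest p.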
